A study of Mus musculus with 14 samples.

Results

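The genes described here are the 9 nuclear genes of cytochrome c oxidase (complex IV) whose subunits exist as tissue isoforms, of 35275 genes in the table: Cox4i1 and Cox4i2, Cox6a1 and Cox6a2, Cox7a1, Cox7a2 and Cox7a2l, and Cox8a and Cox8b. They were chosen by name and not by a cut on their values, though earlier results of these data were known. All 9 passed the filter on low values. The samples are brown adipose tissue RNA of 14 C57BL/6 mice, aged 8 weeks. Controls carried the floxed Lrpprc alleles (LrpprcFF) without Cre, and knockouts carried the same alleles with Ucp1-Cre (LrpprcFF Ucp1-Cre). Deletion was thus directed to cells that use the Ucp1 promoter, but where it took place was not measured. Only knockouts carried Cre, so effects of Cre itself and of the deletion cannot be told apart. Mice were housed at 22 °C (4 controls, 4 knockouts) or at thermoneutrality, 30 °C (3 controls, 3 knockouts). The labels give brown adipocytes as the cell type but describe homogenized tissue, so RNA of every cell in the tissue was measured. In such bulk samples, fewer cells of a type and less RNA per cell cannot be told apart. No label says how the animals were bred or handled beyond this, and p-values measure only the spread between these samples.

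Complex IV passes electrons from cytochrome c to oxygen and pumps protons across the inner mitochondrial membrane. Its catalytic core is made in the mitochondrion (mt-Co1, mt-Co2, mt-Co3), and the surrounding subunits come from the nucleus. Lrpprc, an RNA-binding protein of the mitochondrial matrix, stabilises mitochondrial messenger RNAs. In several places of the complex, one of alternative proteins can be built in. Cox4i1, Cox6a1, Cox7a2 and Cox8a are the widely expressed forms. Cox6a2, Cox7a1 and Cox8b are known as the heart and skeletal muscle forms, and Cox7a1 and Cox8b are also abundant in brown fat. Cox4i2 is known from lung and from vascular cells and is induced by low oxygen in some cells. Cox7a2l, also called Scaf1, is known as a factor that can join complex III to complex IV in supercomplexes. Its RNA level does not measure supercomplexes, and whether it acts so in these mice was not tested.

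The sequence upstream of the start site was read for 6 of the 9 genes (Cox6a1, Cox7a1, Cox7a2, Cox7a2l, Cox8a, Cox8b) from RefSeq promoters on GRCm38.p6. The window runs from base -250 to base -31 before the start, 220 bases. Of these windows 5 are printed. They let the common and the muscle form of subunits 7A and 8 be compared with each other and with Cox6a1. Cox6a1 is the member with the highest FPKM in 22 °C controls. Each is written 5′ to 3′ in the direction of the gene, with matches to the searched motifs in capitals.
Cox6a1, chr5:115348989-115349208, minus strand: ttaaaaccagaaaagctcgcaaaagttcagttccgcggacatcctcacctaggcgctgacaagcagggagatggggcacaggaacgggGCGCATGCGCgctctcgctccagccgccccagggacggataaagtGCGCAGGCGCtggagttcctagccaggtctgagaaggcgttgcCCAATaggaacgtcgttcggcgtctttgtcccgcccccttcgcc
Cox7a1, chr7:30183921-30184140, plus strand: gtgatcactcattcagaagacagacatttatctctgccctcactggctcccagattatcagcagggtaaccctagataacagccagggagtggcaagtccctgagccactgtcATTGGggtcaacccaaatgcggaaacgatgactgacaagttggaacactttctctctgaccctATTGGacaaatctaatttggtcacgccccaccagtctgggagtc
Cox7a2, chr9:79759884-79760103, minus strand: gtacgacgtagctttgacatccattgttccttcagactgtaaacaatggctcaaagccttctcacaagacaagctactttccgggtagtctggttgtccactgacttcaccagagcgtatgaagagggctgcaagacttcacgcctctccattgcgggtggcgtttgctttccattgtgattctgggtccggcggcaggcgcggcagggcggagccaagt
Cox8a, chr19:7217647-7217866, minus strand: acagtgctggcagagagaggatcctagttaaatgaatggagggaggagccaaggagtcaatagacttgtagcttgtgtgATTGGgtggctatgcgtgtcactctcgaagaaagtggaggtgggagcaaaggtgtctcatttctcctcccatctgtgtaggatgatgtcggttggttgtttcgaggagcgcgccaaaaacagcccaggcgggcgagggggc
Cox8b, chr7:140900477-140900696, minus strand: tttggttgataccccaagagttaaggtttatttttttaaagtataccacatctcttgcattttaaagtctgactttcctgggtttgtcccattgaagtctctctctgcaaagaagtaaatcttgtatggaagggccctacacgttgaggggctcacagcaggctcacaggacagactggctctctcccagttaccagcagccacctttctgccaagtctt
The motifs searched on both strands were the CCAAT box (CCAAT), the TATA box (TATAAA), an E-box of muscle genes (CAGCTG), a site of oestrogen-related receptors (AAGGTCA), an ETS site (CCGGAAG), the palindromic NRF1 pattern and the MEF2 site. Cox6a1 held the NRF1 pattern at 2 places and 1 CCAAT, Cox7a1 held CCAAT at 2 places on the opposite strand, and Cox8a held it at 1 place on the opposite strand. The windows of Cox7a2, Cox7a2l and Cox8b held no match, which says only that these letters are not in these bases. Of 32851 mouse promoters with the same window, 2.78% held the NRF1 pattern and 31.0% held CCAAT. A match is a description of letters and not evidence of binding. The Cox6a1 window overlaps an exon of the long non-coding RNA gene Gm42903.

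Facts of the whole series bear on the levels below. The recovered depth was 16.04 to 21.28 M fragments per library. Lrpprc was at 25.3 to 57.3 scaled FPKM in the 7 controls and 4.97 to 11.2 in the 7 knockouts. Scaled FPKM is the deposited FPKM (fragments normalised to gene length and sequencing depth) divided by a factor for each library, taken over nuclear genes. Of the brown adipocyte markers, Ucp1 was between 269 and 3358, Cidea between 676 and 2162 and Fabp4 between 3763 and 13709 scaled FPKM in all libraries, while Elovl3 was at 10.6 or more at 22 °C and at 1.42 or less at 30 °C, and Prdm16 was at 2.20 to 8.39. The skeletal muscle markers summed to 33.6 scaled FPKM in replicate 3 of the 30 °C controls and to 546 to 16316 in the other 13 libraries. In replicates 3 and 4 of the 22 °C controls, whose animal identifiers begin with another letter (R) than those of all other animals, that sum was 8344 and 4784, against 707 and 546 in replicates 1 and 2. The female-expressed Xist was at 0.0141 FPKM or less in the 8 libraries from 22 °C and at 9.01 to 18.4 in the 6 from 30 °C, while the Y-linked Ddx3y was at 14.5 to 23.1 and at 0.0244 or less. By these genes every 22 °C library had a male pattern and every 30 °C library a female pattern, while the labels give no sex. Housing temperature and sex therefore cannot be told apart here.

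Members differed widely in FPKM. FPKM is per length, but the annotation that gave the lengths is not known here. How far FPKM can be compared between genes was not tested. Ranks, and the sums and shares of paired forms below, therefore describe FPKM and not measured amounts of RNA. In 22 °C controls Cox6a1 and Cox8b held ranks 3 and 4 among 35262 nuclear genes by mean level. Cox7a1, Cox8a and Cox4i1 followed at ranks 15, 17 and 23. Cox7a2 (rank 120), Cox7a2l (380) and Cox6a2 (863) were lower, and Cox4i2 was at rank 8128.

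**Figure D1:**
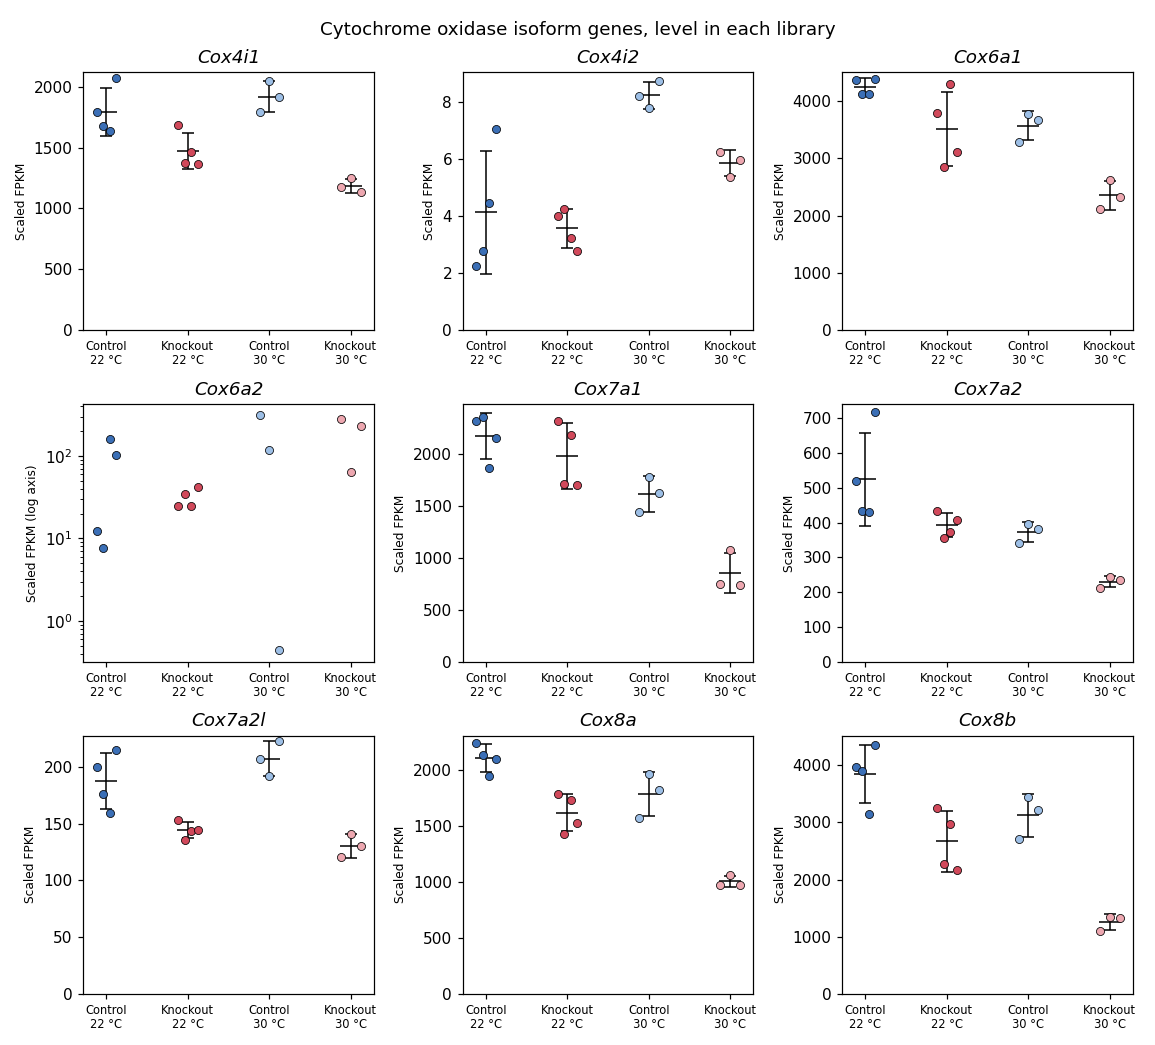
Scaled FPKM (vertical axis, logarithmic for Cox6a2 only) of the 9 isoform genes in each of 14 libraries (points), with the mean and SD of each group as bars except for Cox6a2. The 3 knockouts at 30 °C lie below the 3 controls at 30 °C for 8 genes, Cox6a2 being the exception.

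With knockout of Lrpprc, the level of most isoform genes was lower, and the difference passed the test at 30 °C but not at 22 °C. At 30 °C 7 of 9 genes were called lower (limma, adjusted p under 0.05), against 5.28% of the 13079 genes tested. Their log2 fold changes ran from -0.60 (Cox6a1) to -1.30 (Cox8b), and the median of all 9 was -0.69 against 0.06 over all genes. The count at 30 °C was 1 with quantile normalization over all genes and 4 with that of nuclear genes. At 22 °C limma called 0 of 9, against 1.97% of all genes in either direction. The 9 values at 22 °C were all below 0 with a median of -0.29 (all genes 0.00), and 5 had an unadjusted p under 0.05 (Cox4i1, Cox7a2, Cox7a2l, Cox8a and Cox8b) against 15.8% of all genes. The direction at 22 °C rested on the scaling: with FPKM as deposited, where the median of all genes moves to 0.24 at 22 °C and 0.31 at 30 °C, Cox4i1, Cox4i2, Cox6a1, Cox6a2 and Cox7a1 were above 0. With array weights, which give libraries unequal weight, 3 members were called lower at 22 °C (Cox7a2l, Cox8a and Cox8b). No range overlap was seen for 2 members at 22 °C (Cox7a2l and Cox8a), all lower, against 4.53% of genes, and for 8 at 30 °C against 14.6%.

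**Figure D2:**
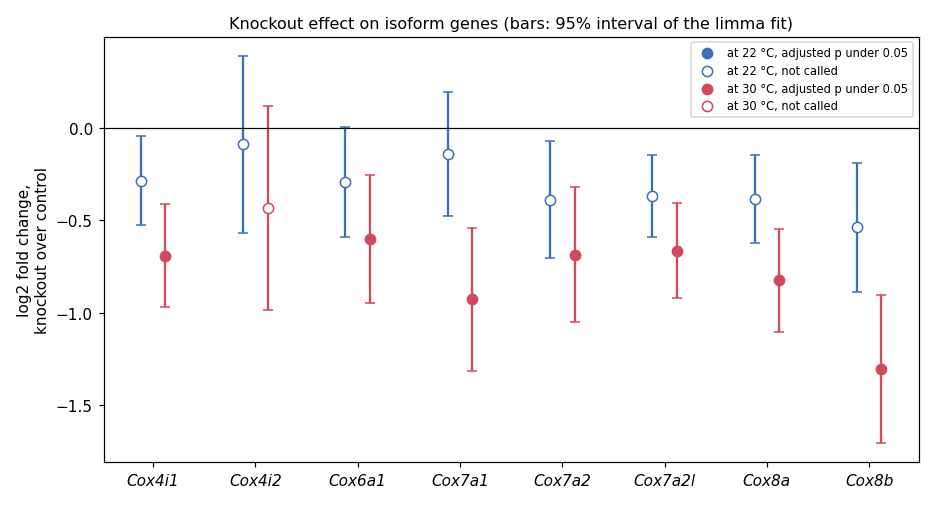
Log2 fold change of knockout over control (vertical axis) for 8 isoform genes, with the 95% interval of the limma fit. Filled points were called at an adjusted p under 0.05, all of them at 30 °C. Cox6a2, at -0.23 and 2.12 with standard errors of 1.38 and 1.60, is left out because its interval is far wider.

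Subunit 8 showed the largest fall at 30 °C. Cox8b, the muscle and brown fat form, was at 3973, 3891, 3142 and 4352 scaled FPKM in the 4 controls at 22 °C and at 3257, 2273, 2963 and 2164 in the 4 knockouts. At 30 °C it was at 2704, 3433 and 3221 in controls and at 1104, 1345 and 1334 in knockouts. The groups overlapped at 22 °C, where 1 knockout lay above the lowest control, and were far apart at 30 °C. In limma the log2 fold change was -0.54 (SE 0.16, adjusted p = 0.109) at 22 °C and -1.30 (SE 0.19, adjusted p = 0.00118) at 30 °C. Cox8a, the widely expressed form, was at 2248, 2139, 1949 and 2106 in controls and 1786, 1435, 1732 and 1532 in knockouts at 22 °C. At 30 °C Cox8a was at 1579, 1968 and 1824 in controls and 976, 1067 and 978 in knockouts. Every knockout of Cox8a lay below every control at the same temperature. Its log2 fold change was -0.38 (SE 0.11, adjusted p = 0.101) and -0.82 (SE 0.13, adjusted p = 0.00216). Summed over both forms, knockouts held 72.0% of the control level at 22 °C and 46.2% at 30 °C. With quantile normalization over all genes neither gene was called at 30 °C (Cox8a -0.35, adjusted p = 0.0631; Cox8b -0.47, adjusted p = 0.191), and at 22 °C both moved above 0 (0.01 and 0.39).

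For subunit 7A, Cox7a1, the muscle and brown fat form, was at 2324, 2356, 1867 and 2156 scaled FPKM in the 22 °C controls and at 2323, 1714, 2188 and 1709 in the knockouts. Its 30 °C values were 1443.5, 1783 and 1625 in controls and at 757, 1078 and 743 in knockouts. At 22 °C 2 of the 4 knockouts lay inside the control range and the other 2 below it, and the 95% interval of their log2 difference was -0.48 to 0.19. Limma gave a 30 °C log2 fold change of -0.93 (SE 0.18, adjusted p = 0.00578), a fitted fold of 0.526. With quantile normalization over all genes it was not called (-0.56, adjusted p = 0.0792). Cox7a2, the widely expressed form, was at 518, 434, 430.0 and 715 in controls and 433, 356, 374 and 408 in knockouts at 22 °C, and at 341, 395 and 381 against 213, 245 and 235 at 30 °C. Its log2 fold change was -0.39 (SE 0.15, adjusted p = 0.209) and -0.69 (SE 0.17, adjusted p = 0.0177). The call of Cox7a2 at 30 °C was lost with FPKM as deposited (adjusted p = 0.113), with either quantile normalization (0.106 and 0.0974), and without control replicate 2, control replicate 3, knockout replicate 1 or knockout replicate 3 of the 30 °C groups (0.0729, 0.0536, 0.0749 and 0.0543).

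Cox7a2l was at 200.3, 176, 159 and 215 scaled FPKM in the 22 °C controls and at 153, 135, 144 and 145 in the knockouts. Its 30 °C values were 207, 192 and 223 in controls and at 120.4, 141 and 130.0 in knockouts. Knockouts lay below controls without overlap at both temperatures. Limma gave log2 fold changes of -0.37 (SE 0.10, adjusted p = 0.0887) and -0.66 (SE 0.12, adjusted p = 0.00428). Without control replicate 3 at 22 °C it passed there too (-0.44, adjusted p = 0.0479). The pseudogene Gm6969 is 97.7% identical to Cox7a2l over 342 bases and reached 11.1 FPKM, so a part of the reads of either could have been assigned to the other.

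For subunit 4, Cox4i1, the widely expressed form, was at 1791, 1676, 1639 and 2073 scaled FPKM in the 22 °C controls and at 1685, 1373, 1465 and 1367 in the knockouts. In the 30 °C groups it was at 1791, 2043 and 1914 in controls and at 1176, 1248 and 1133 in knockouts. In limma these were log2 fold changes of -0.28 (SE 0.11, adjusted p = 0.231) and -0.69 (SE 0.13, adjusted p = 0.00511). With quantile normalization over all genes or over nuclear genes Cox4i1 was not called at 30 °C (-0.17 and -0.31, adjusted p = 0.409 and 0.0977). Cox4i2 was low everywhere, at 2.27, 2.78, 4.45 and 7.05 in the 22 °C controls and 3.99, 4.27, 3.25 and 2.79 in the knockouts, which overlapped. Cox4i2 at 30 °C was at 8.21, 7.78 and 8.71 in controls and 6.26, 5.36 and 5.95 in knockouts, with no overlap and no call (log2 fold change -0.43, SE 0.26, adjusted p = 0.302). Without the R controls Cox4i2 was called at 30 °C (-0.43, adjusted p = 0.0391), and at 22 °C its value turned from -0.09 to 0.37 (adjusted p = 0.18).

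For subunit 6A, Cox6a1, the widely expressed form, was at 4371, 4129, 4118 and 4379 scaled FPKM in the 22 °C controls and at 3798, 2852, 4289 and 3113 in the knockouts. Under 30 °C housing it was at 3278, 3766 and 3666 in controls and at 2121, 2619 and 2326 in knockouts. The spread among knockouts at 22 °C was wide, with 1 of them inside the control range. By limma the log2 difference was -0.29 (SE 0.14, adjusted p = 0.331) and -0.60 (SE 0.16, adjusted p = 0.0255). The Cox6a1 call at 30 °C was the least stable: it was lost with no filter on low values (adjusted p = 0.209), with the compared groups fitted alone (0.0789), with FPKM as deposited (0.166), with the same nuclear total in each library (0.0656), with quantile normalization of nuclear genes (0.914) and without control replicate 2, control replicate 3, knockout replicate 1 or knockout replicate 3 of the 30 °C groups (0.094, 0.081, 0.106 and 0.0768). With quantile normalization over all genes the value turned to 0.65 (adjusted p = 0.285).

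Cox6a2, the muscle form, was set apart by its spread between libraries of one group. It was at 12.4, 7.61, 163 and 102 scaled FPKM in the 22 °C controls and at 24.8, 35.0, 24.7 and 41.8 in the knockouts. Under 30 °C housing it was at 311, 118 and 0.437 in controls and at 286, 64.1 and 233 in knockouts. Within the 30 °C controls the highest and the lowest library thus differed by more than any group means did. By limma the knockout differed by -0.23 (SE 1.38) and 2.12 (SE 1.60) in log2, with adjusted p = 0.955 and 0.427. Without replicate 3 of the 30 °C controls the value at 30 °C turned to -0.24 (adjusted p = 0.927).

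The level of Cox6a2 followed the skeletal muscle markers over the 14 libraries. Against the mean log2 level of 14 muscle markers, Pearson's r was 0.985 and Spearman's rho 0.982 (permutation test, both p = 1e-05, the smallest that 100000 permutations can give; adjusted p = 0.0001 over 10 relations). Without the 2 libraries farthest from the median score r was 0.971, and it was 0.954 over the 8 libraries at 22 °C and 0.995 over the 6 at 30 °C. For Cox7a1 r was -0.445 (permutation p = 0.112, adjusted 0.359) and rho -0.582 (permutation p = 0.0318, adjusted 0.106), with r -0.647 without the 2 farthest libraries. For Cox8b r was -0.371 (permutation p = 0.194, adjusted 0.359) and rho -0.459 (permutation p = 0.101, adjusted 0.168), with r -0.45 without them. Neither of these inverse relations passed the adjustment. In replicate 3 of the 30 °C controls, muscle markers were at 33.6 and Cox6a2 at 0.437 scaled FPKM. Cox7a1 was at 1625 and Cox8b at 3221 there, inside the range of the other controls. This is 1 library, and which cells gave the Cox7a1 and Cox8b RNA was not tested. Of the muscle markers 0 of 14 were called at either temperature (limma, with 0 at an unadjusted p under 0.05). Over all genes 1.97% were called at 22 °C, and 5.28% lower and 8.82% higher at 30 °C. All 14 were lower in knockouts at 22 °C (median log2 fold change -0.72) and all 14 higher at 30 °C (median 1.77). Standard errors were wide, at 1.46 and 1.69 for Ckm, so the absence of a call does not show equal muscle content. The summed level of these markers ran from 546 to 8344 in controls and 677 to 1724 in knockouts at 22 °C, and from 33.6 to 16316 and 2500 to 10310 at 30 °C. With the muscle score as a covariate, Cox7a1 and Cox8b at 30 °C were at -0.86 and -1.25 (limma adjusted p = 0.00963 and 0.00214).

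**Figure D3:**
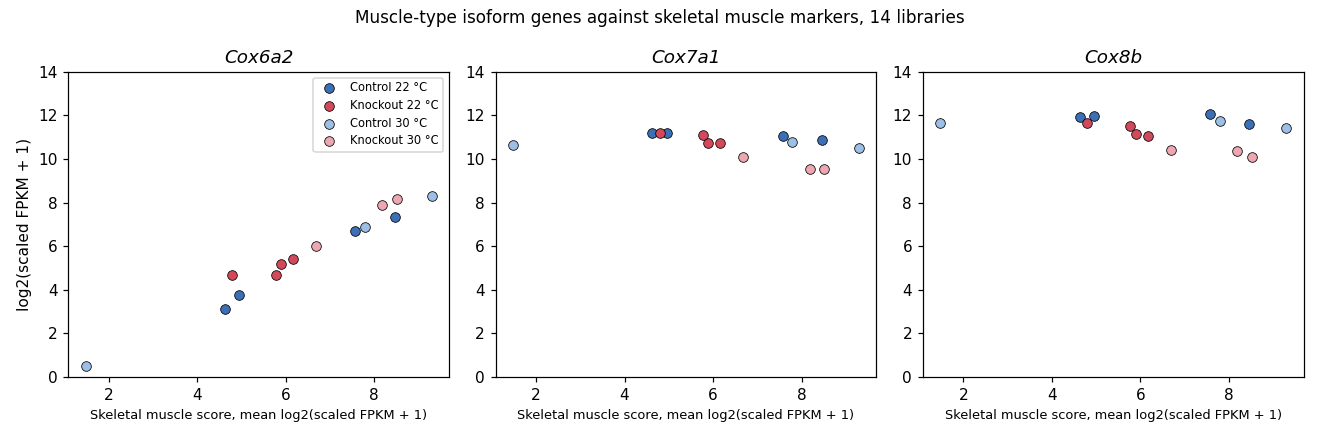
Log2(scaled FPKM + 1) of Cox6a2, Cox7a1 and Cox8b (vertical axis) against the skeletal muscle score, the mean log2 level of 14 markers (horizontal axis), in 14 libraries coloured by group. Cox6a2 climbs with the score, with r of 0.985, and the library with the lowest score keeps Cox7a1 and Cox8b at the level of the other controls.

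Ratios between isoforms within a library do not depend on the scaling, and were compared over both temperatures by an exact two-sided permutation test within temperature, adjusted over 5 ratios. None of the 5 differed between genotypes after adjustment. The nearest was Cox8b to Cox8a. Cox8b made up 63.9, 64.5, 61.7 and 67.4% of the pair in the 22 °C controls and 64.6, 61.3, 63.1 and 58.5% in the knockouts. At 30 °C the share was 63.1, 63.6 and 63.8% in controls and 53.1, 55.8 and 57.7% in knockouts, without overlap. The log2 ratio was lower in knockouts by a mean difference of -0.32 (exact permutation p = 0.0114, adjusted p = 0.0571), so it did not pass. Without the R controls, without control replicate 3 at 22 °C or without knockout replicate 1 at 22 °C it passed (adjusted p = 0.0417, 0.0357 and 0.0286).

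The remaining ratios did not pass between genotypes either. Cox7a1 made up 80.6% ± 3.95 (SD, n = 4) of Cox7a1 and Cox7a2 in 22 °C controls, 83.3% ± 2.03 (n = 4) in knockouts, 81.3% ± 0.525 (n = 3) in 30 °C controls and 78.5% ± 2.79 (n = 3) in knockouts. Averaged over both temperatures, the log2 ratio differed by 0.00 between genotypes (exact permutation p = 0.979). That mean joins opposite differences, 0.25 at 22 °C and -0.24 at 30 °C. Their interaction was 0.49 and did not pass (exact permutation p = 0.0686, adjusted p = 0.343 over 5 ratios). Cox7a2l to Cox7a2 differed by 0.02 (exact permutation p = 0.761) and Cox4i2 to Cox4i1 by 0.19 (exact permutation p = 0.293). Without the R controls, Cox4i2 to Cox4i1 was higher in knockouts by 0.45 (exact permutation, adjusted p = 0.0417). Cox6a2 to Cox6a1 differed by 1.63 (exact permutation p = 0.394), with shares of Cox6a2 from 0.940% to 7.80% as group means.

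**Figure D4:**
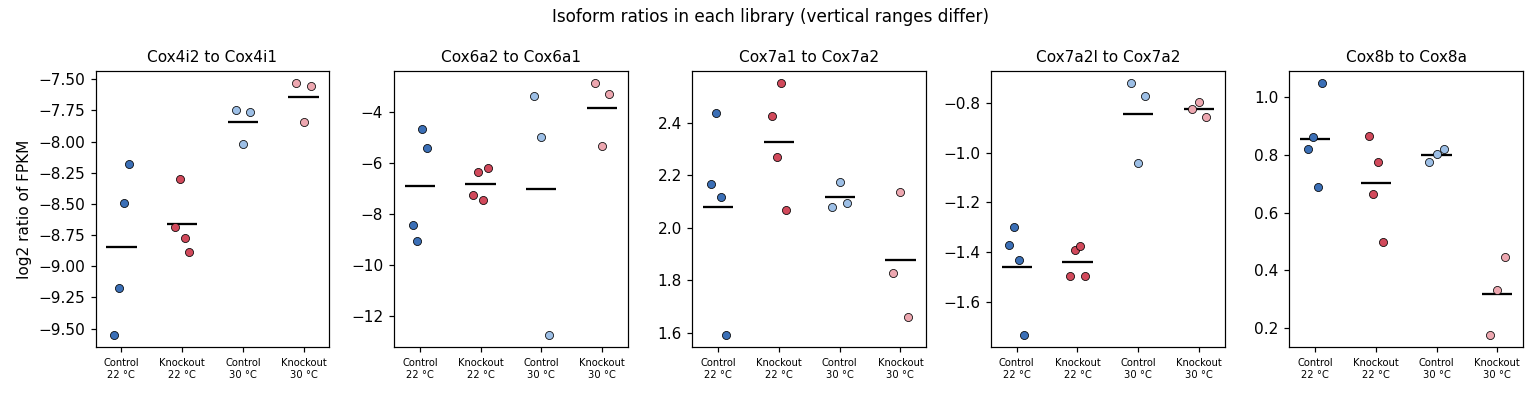
Log2 ratio of the FPKM of paired isoforms (vertical axis, a range of its own in each panel) in each library, with group means as lines. The 30 °C knockouts lie lowest for Cox8b to Cox8a, and both 30 °C groups lie above both 22 °C groups for Cox7a2l to Cox7a2.

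Between temperatures, 3 of the 5 isoform ratios differed after adjustment, and single members moved as follows. Xist and Ddx3y separate the same libraries, so none of these differences can be told apart from a difference of sex. In controls 2 of 9 members were called (limma): Cox7a2 was higher at 22 °C (log2 fold change 0.46, adjusted p = 0.034) and Cox4i2 was lower (-0.94, adjusted p = 0.0091), against 38.8% of all genes in either direction, 18.2% higher and 20.6% lower. The Cox7a2 call was lost without control replicate 1 at 22 °C or without any of the 3 controls at 30 °C (adjusted p = 0.0648, 0.115, 0.0614 and 0.0702). In knockouts 6 of 9 were called, and these 6 were higher at 22 °C, against 51.1% of all genes in either direction and 21.8% higher. Cox7a1 had the largest difference (1.21, SE 0.17, adjusted p = 0.000149), followed by Cox8b (1.06, SE 0.17, adjusted p = 0.00038), Cox7a2 (0.76), Cox8a (0.68), Cox6a1 (0.56) and Cox4i1 (0.31, adjusted p = 0.0485). The Cox6a1 call was lost with no filter (adjusted p = 0.104) and with either quantile normalization (0.109 and 0.182). Cox7a2l was at 0.15 (adjusted p = 0.287). Cox4i2 went the other way, lower at 22 °C without overlap (-0.59, adjusted p = 0.0528), and it was called with FPKM as deposited, the same nuclear total, the compared groups alone, array weights and without the R controls (adjusted p = 0.0368, 0.0448, 0.0076, 0.00899 and 0.00175), and without control replicate 1 or 4 at 22 °C (0.0295 and 0.00891). Cox6a2 was lower at 22 °C by -2.36 (SE 1.49, adjusted p = 0.198). The Cox4i1 call was lost in 11 of the 14 analyses that left out 1 library (adjusted p from 0.0526 to 0.136) and under 8 other alternatives. Markers of other cells moved with temperature beside these results. In knockouts 6 of 6 macrophage markers were called lower at 22 °C, against 29.4% of all genes, with a median of -2.15, and 8 of 10 brown adipocyte markers were called higher, with a median of 1.09. In controls 4 of 6 macrophage markers were called lower (median -0.84), and of the brown adipocyte markers 5 were called higher and 1 lower. Their part in the temperature differences was not tested.

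The log2 ratio of Cox7a2l to Cox7a2 was lower at 22 °C by -0.61 (exact two-sided permutation within genotype, p = 0.000816, the smallest this design can give; adjusted p = 0.00408 over 5 ratios). Cox7a2l made up 23.1 to 28.9% of that pair in the 8 libraries at 22 °C and 32.7 to 37.8% in the 6 at 30 °C. Cox4i2 to Cox4i1 was lower at 22 °C by -1.01 (exact permutation, adjusted p = 0.00408). Cox4i2 made up 0.126 to 0.339% of its pair at 22 °C and 0.379 to 0.530% at 30 °C, again without overlap. Cox8b to Cox8a was higher at 22 °C by 0.22 (exact permutation, adjusted p = 0.0449), which 12 of the 14 analyses that left out 1 library lost (adjusted p from 0.05 to 0.108). By genotype the difference was 0.06 in controls and 0.38 in knockouts.

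Over the 14 libraries together, the level of Cox4i2 followed the pericyte markers, with r of 0.842 and rho of 0.846. The permutation p was 8e-05 and 0.00021 (adjusted p = 0.0004 and 0.00105 over 10 relations). These permutations, like those for the skeletal muscle score, shuffled libraries across groups, so their p-values include differences between groups. Without the 2 farthest libraries r was 0.848. Within temperatures r was 0.933 over the 8 libraries at 22 °C and 0.0402 over the 6 at 30 °C, so the relation did not hold at 30 °C. The pericyte markers summed to 154 to 326 scaled FPKM in 22 °C controls, 168 to 195 in 22 °C knockouts, 193 to 224 in 30 °C controls and 187 to 223 in 30 °C knockouts. Single pericyte markers moved differently with temperature. In controls 3 of 8 were called lower at 22 °C (Ndufa4l2 -1.15, Notch3 -0.92, Pdgfrb -0.58), against 20.6% of all genes. Abcc9 was called higher (0.63), against 18.2%. Against the skeletal muscle score, r of Cox4i2 was 0.27 over 14 libraries (permutation, adjusted p = 0.393), 0.777 without the 2 farthest, 0.66 at 22 °C and -0.375 at 30 °C. Smooth muscle and endothelial scores were not tried, so the relation is not shown to be particular to pericytes. The part of pericyte markers in the Cox4i2 differences was not tested.

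The knockout effect differed in size between temperatures for some members without passing the test. Limma's interaction called 0 of 9, and 0.0% of all genes. At an unadjusted p under 0.05 there were 4 members, Cox4i1, Cox7a1, Cox8a and Cox8b, against 13.0% of all genes. The difference of log2 fold changes, the 22 °C value minus the 30 °C value, was 0.79 (SE 0.24, adjusted p = 0.215) for Cox7a1 and 0.77 (SE 0.25, adjusted p = 0.237) for Cox8b. A fall at 30 °C larger than at 22 °C is therefore not shown for any member.

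Other genes of complex IV give the setting. The 3 mitochondrially encoded subunits were called lower at both temperatures, with mt-Co1 at -3.95 and -3.59 (limma adjusted p = 4.76e-06 and 6.11e-05). Of 7 common nuclear subunits without tissue isoforms on the list, 4 were called lower at 22 °C, against 1.06% of all genes, and 6 at 30 °C, against 5.28%. Their medians were -0.51 and -0.90. Ndufa4, a late-added subunit, fell most at 30 °C (-1.19), and Cox5b did not pass at either temperature (-0.26 and -0.43). Cox6b2, the testis form of subunit 6B, was the only one of 3 other isoform genes that passed the filter and was called lower at 30 °C (-1.33, adjusted p = 0.00592), from 41.1, 51.9 and 39.2 scaled FPKM in controls to 16.1, 18.8 and 15.7 in knockouts. Of 20 assembly factors tested, 2 were called lower at 22 °C and 6 at 30 °C, against the same 1.06% and 5.28%, with Pet100 the lowest (-0.67 and -1.03).

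Cell markers also moved with genotype beside these results. Of 6 macrophage markers 5 were called higher in knockouts at 30 °C, against 8.82% of all genes, and their summed level was 76.5 to 281 in controls and 412 to 1277 in knockouts. Of 10 brown adipocyte markers 4 were called lower at 30 °C (Ucp1, Adipoq, Cidea and Fabp4), against 5.28% of all genes. Adipoq was at -1.24 and Fabp4 at -0.85. The median of the 10 was -0.45, with 9 lower and 1 higher (Dio2, 0.98, not called). The summed level of the 10 was 11179 to 13874 in controls and 6169 to 8132 in knockouts. Most of that sum was Fabp4, with means of 8345.8 in controls and 4682.5 in knockouts. At 22 °C 1 of these 10 was called lower, Adipoq (-0.79, limma adjusted p = 0.016), against 1.06% of all genes. The 10 were split there, 5 lower and 5 higher, with a median of 0.12. Of these 10, 5 had an unadjusted p under 0.05 in limma, against 15.8% of all genes. Of 6 macrophage markers 0 were called at 22 °C, against 1.97% of all genes, and 4 had an unadjusted p under 0.05 in limma. None of the macrophage and brown adipocyte markers was at 0 in every library of a group. Their part in the lower isoform levels was not tested.

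The genes most like each member over the 14 libraries, by Pearson's r of log2 values, describe what varied together and share the libraries and their scaling. For Cox6a2 they were the muscle genes Acta1 (0.990), Tcap (0.990) and Ckm (0.987). For Cox7a1 the nearest was Cidea (0.982), a brown fat lipid droplet protein, and for Cox8b it was Cox8a (0.986). Cox8a itself was nearest to Atp5j2 (0.991), a subunit of ATP synthase, and Cox7a2 to Ndufs5 (0.977), a subunit of complex I. Cox4i1 was nearest to S100a1 (0.963), Cox6a1 to Hddc3 (0.968), Cox7a2l to Gm5617 (0.953) and Cox4i2 to Ccdc85b (0.955). Of these nearest genes only Acta1, that of Cox6a2, was on the skeletal muscle marker list. That list held 14 of the 13079 genes tested, so its absence for the other members says little.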

How the data were processed

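RNA-seq of brown adipose tissue from 14 mice was used. The authors deposited FPKM per gene, 1 column per animal; mm9 is named as the genome build per the submitters' processing notes, and the aligner, counter, strand and annotation are not given in the sources used here. Of 35275 identifiers 34490 matched GENCODE M21, used for symbols and lengths. Depth was recovered from low values, of which 92.2 to 94.0% lay within 0.1 of whole fragments per library. Genes with FPKM of at least 1 in at least 3 samples were kept (13079). Each library was divided by its median ratio over 10049 nuclear genes (1.05 to 1.20 in knockouts, 0.823 to 0.947 in controls), because mitochondrial transcripts fell in knockouts, and log2 of scaled FPKM plus 1 was fitted with limma 3.58.1 (R 4.3.3), a mean per group, adjusted by Benjamini-Hochberg over all genes; fold changes are on that scale. Ratios used deposited FPKM plus 0.1 and exact permutation tests (Python 3.11.15). Promoter motifs and sequence copies (blastn 2.17.0) were searched by script. Animals carry no pairing, so no block was fitted. Members, lists and marker sets were chosen with earlier results of these data known. Genes named are the members, their 3 nearest genes, extremes of the lists, Lrpprc and Ucp1; further genes were chosen after their values were seen. On simulated data with known changes the fit gave directions correctly, but it missed most changes below 2-fold and, with wider spread, many of 2-fold, and false calls were more frequent than the nominal share in every simulated setting. A first version of that test, at 2-fold alone, did not meet its own limit for recovery and was replaced by one that covers several sizes and spreads. Alternatives tried were other scalings, pseudocounts, filters, limma settings, the muscle score as a covariate, and leaving out each animal; quantile normalization of nuclear genes was added after seeing the data.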

Additional observations from a re-analysis of the deposited data

How the results depend on the processing

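Of the 5 counts of called members, the interaction count stayed at 0 and the count for 22 °C against 30 °C in knockouts ran from 4 to 7 under every alternative. The count at 22 °C was 3 with array weights, and 0 to 1 without single animals. The count at 30 °C was 1 with quantile normalization and 4 with that of nuclear genes, and 5 to 7 without single animals. The control count for temperature was 1 with no filter, with FPKM as deposited and with the compared groups alone, and 1 to 3 without single animals. The cause of these changes was not tested.

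At 22 °C knockout effects turned positive with FPKM as deposited for Cox4i1 (0.020), Cox4i2 (0.14), Cox6a1 (0.012), Cox6a2 (0.055) and Cox7a1 (0.16). With quantile normalization they turned positive for Cox4i1 (0.079), Cox6a1 (1.17), Cox7a1 (0.41), Cox8a (0.0084) and Cox8b (0.39), and with that of nuclear genes for Cox7a1 (0.10). With the same nuclear total Cox4i2 (0.024) and Cox7a1 (0.0040) turned. Cox4i2 was at 0.22 with array weights and 0.37 without the R controls, and Cox6a2 at 1.16 and 1.56, and at 0.53 with the muscle score as covariate. At 30 °C Cox6a1 was at 0.65 with quantile normalization. Between temperatures, Cox6a2 in controls was at 0.40 with a pseudocount of 0.1, and at 0.10 with either quantile normalization, and Cox4i1 in knockouts at -0.0011 with that of nuclear genes. The Cox6a2 interaction was at 0.042 with the muscle score. The Cox4i2 to Cox4i1 interaction was at 0.50 without the R controls and 0.13 after removing the muscle score.

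Without single animals knockout effects on Cox6a2 ran from -0.94 to 0.48 at 22 °C and from -0.24 to 3.65 at 30 °C, that on Cox4i2 at 22 °C from -0.28 to 0.16, the Cox6a2 temperature difference in controls from -2.37 to 1.52 and its interaction from -3.88 to 0.0022. Likewise the interaction ran from -0.25 to 0.21 for Cox4i2 to Cox4i1 and from -0.092 to 0.097 for Cox7a2l to Cox7a2.

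Ratios by genotype changed as follows. Without the R controls Cox4i2 to Cox4i1 (0.45) and Cox8b to Cox8a (-0.31) passed, and Cox7a1 to Cox7a2 (-0.11) and Cox7a2l to Cox7a2 (-0.043) turned sign. With the muscle score removed Cox6a2 to Cox6a1 (1.13) and Cox8b to Cox8a (-0.31) passed. Cox7a1 to Cox7a2 was at -0.24 at 30 °C alone, where 3 against 3 cannot pass. Without single animals Cox7a1 to Cox7a2 ran from -0.077 to 0.064, Cox7a2l to Cox7a2 from -0.029 to 0.051 and Cox8b to Cox8a from -0.35 to -0.28. Ratios by temperature were at -1.01 (Cox4i2 to Cox4i1), -0.61 (Cox7a2l to Cox7a2), 0.14 (Cox6a2 to Cox6a1), -0.038 (Cox7a1 to Cox7a2) and 0.055 (Cox8b to Cox8a) in controls alone, none passing; there 4 against 3 gives an exact p of 0.0286 at the smallest, so a ratio can pass only if at least 3 of the 5 reach it. In knockouts alone Cox6a2 to Cox6a1 (-2.96) passed and Cox8b to Cox8a (0.38) did not. Cox8b to Cox8a did not pass with the muscle score removed (0.21), and Cox7a1 to Cox7a2 passed without the R controls (0.32). Without single animals Cox6a2 to Cox6a1 ran from -2.83 to -0.50, Cox7a1 to Cox7a2 from 0.15 to 0.29 and Cox8b to Cox8a from 0.18 to 0.25. Simulated data showed more false calls than the nominal share, and 3 or 4 animals a group leave small changes undetected, so a member not called is not shown to be unchanged.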

Other observations

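Cox6a2 per unit of muscle RNA was not the same in all libraries. Its FPKM as a percentage of that of Ckm, the muscle creatine kinase, was 38.0, 25.3, 34.1 and 45.1% in the 22 °C controls and 80.3, 45.3, 34.4 and 52.0% in the knockouts. At 30 °C it was 36.0, 35.9 and 30.7% in controls and 43.6, 42.4 and 46.3% in knockouts, without overlap. The 30.7% is of control replicate 3, where Cox6a2 was at 0.414 FPKM, about 5 fragments, and Ckm at 1.35 FPKM, so that value is uncertain. Ckm was chosen for this after the values were seen, and no test was made of it. After the muscle score was removed from the log2 ratio of Cox6a2 to Cox6a1, the ratio was higher in knockouts by 1.13 (exact two-sided permutation p = 0.00143, adjusted p = 0.00714 over 5 ratios). Cox6a2 itself, with the muscle score as a covariate in limma, was not called: its knockout effect was 0.53 at 22 °C (adjusted p = 0.189) and 0.48 at 30 °C (adjusted p = 0.182). Cox6a1 was lower in knockouts at 30 °C, and the test takes the slope on the muscle score as known.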
